A study of Mus musculus with 39 samples.

Results

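The imprinted genes described here were 45 genes of the mouse genome that are known to be expressed mainly from 1 parental chromosome, and they were found on the arrays by the gene name of the probe or its current symbol. All 45 had a probe, 83 probes in all, among 22340 named genes, and 42 of them had a probe well above background on all 3 arrays of at least 1 condition and were tested among 17605 genes. The other 3 were Rtl1, Nap1l5 and Calcr. By the allele that is usually active, 23 of the 45 are known as paternally expressed and 20 as maternally expressed, and Gnas and Smoc1 were put in neither class. The arrays summed both alleles, so that the level of each RNA was measured and not its parental origin.

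Imprinting rests on marks that the egg and the sperm lay down on their own copy of a gene and that the embryo keeps, most of them DNA methylation at a control region, and for a small group (Sfmbt2, Gab1, Slc38a4 and Smoc1 here) trimethylation of histone H3 lysine 27 in the oocyte. Many of the genes lie in clusters in which a long noncoding RNA, such as Airn or Kcnq1ot1, silences its neighbours on the paternal chromosome. Imprinted genes are known for their roles in fetal growth and in the placenta, and in the preimplantation embryo the oocyte's stored RNA is replaced by new transcripts from both parental genomes, mostly at the 2-cell stage.

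The study asked how inhibitors of histone deacetylases (HDACi), enzymes that remove acetyl groups from histones, alter the RNA of early embryos. Embryos were made by fertilization in vitro of B6D2F1 oocytes with ICR spermatozoa, and each array held the RNA of 100 pooled oocytes or embryos. Untreated GV oocytes, MII oocytes, 1-cell, 2-cell, 4-cell and 8-cell embryos, morulae and blastocysts made up 8 conditions, and embryos exposed from 4 h post-insemination for 6 h to 10 µM T247, an inhibitor of HDAC3, or 10 µM MGCD0103, an inhibitor of class I HDACs, made up 5 more: both inhibitors at the 1-cell and 2-cell stages and T247 at the 4-cell stage. Collection was at 12 h for 1-cell, 24 h for 2-cell and 48 h for 4-cell embryos, and each condition had 3 arrays. The 3 arrays of a condition held 3 separate samples of this 1 cross, no group carried an engineered allele, and GV and MII oocytes were not fertilized.

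Levels are given as log2 of the processed signal after smooth quantile normalization over all 39 arrays, and a level is not comparable between different probes. A gene was called changed when its log2 fold change was at least 1 in size, its p in limma after Benjamini-Hochberg adjustment was below 0.05 and it was well above background on at least 2 of 3 arrays of a group compared. A group with no array well above background has only an upper limit, and the difference is then given as at least so many fold. This limit is set on the group means and does not allow for the spread of the arrays. Between 43.7 and 57.4% of the probes were well above background on an array. Untreated replicates 1, 2 and 3 lay on slides 1, 2 and 3, T247 arrays on slides 4 and 5 and MGCD0103 arrays on slide 6, so that treatment and slide cannot be told apart. Replicate 1 of the untreated 2-cell embryos stood apart, with r = 0.931 and 0.941 to replicates 2 and 3, which had r = 0.993 to each other. Many of the 2-cell results are also given without it. All 39 arrays were fitted together, so that an SE rests on a gene's spread within all 13 conditions, not only the groups compared. Where replicate 1 stood far apart, as in Ascl2 and Sfmbt2, the spread of that group was wider than the SE and p take in. The scaling left a shift of all genes between stages, with a median log2 change of -0.92 from GV to MII, 0.13 from MII to 1-cell, -0.44 from 1-cell to 2-cell, -0.32 from 2-cell to 4-cell, 0.07 from 4-cell to 8-cell, 0.49 from 8-cell to morula and 0.18 from morula to blastocyst. With T247 at the 2-cell stage the shift was -0.23, and in the other comparisons of treated with untreated embryos it was below 0.1 in size. Among untreated conditions the mean level of each set of stage markers was highest at its own stage. Well above background were 9 of 9 oocyte genes on all 3 GV arrays and 5 of 5 measured 2-cell genes on all 3 untreated 2-cell arrays. On all 3 blastocyst arrays 7 of 7 trophectoderm genes and 5 of 5 inner cell mass genes were. Detection alone was less specific, since all 9 oocyte genes were also detected on every untreated 1-cell array and all 5 2-cell genes on every 8-cell array. Of 10 cumulus and granulosa cell genes, 7 were well above background on all 3 GV arrays and 1 on all 3 blastocyst arrays. Of 8 spermatozoan genes 1 was on all 3 untreated 1-cell arrays, 4 were on all 3 GV arrays and 5 on all 3 blastocyst arrays.

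The promoters of 5 genes that carried the inhibitor results are shown as the 250 bases before the transcription start, read 5′ to 3′ on the coding strand of the GRCm38.p6 build from RefSeq, because imprinted regions are often rich in CpG, the dinucleotide that carries the methyl mark. CpG is in capitals. Magel2 lies at chr7:62376729-62376978 on the plus strand, Airn at chr17:12741061-12741310 (plus), Plagl1 at chr10:13090582-13090831 (plus), Phlda2 at chr7:143502525-143502774 (minus) and Zrsr1 at chr11:22971755-22972004 (plus).
Magel2: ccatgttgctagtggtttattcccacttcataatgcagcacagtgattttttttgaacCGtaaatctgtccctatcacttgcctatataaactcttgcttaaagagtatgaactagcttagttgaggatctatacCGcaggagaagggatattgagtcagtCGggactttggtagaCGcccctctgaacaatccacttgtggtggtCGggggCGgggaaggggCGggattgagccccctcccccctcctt
Airn: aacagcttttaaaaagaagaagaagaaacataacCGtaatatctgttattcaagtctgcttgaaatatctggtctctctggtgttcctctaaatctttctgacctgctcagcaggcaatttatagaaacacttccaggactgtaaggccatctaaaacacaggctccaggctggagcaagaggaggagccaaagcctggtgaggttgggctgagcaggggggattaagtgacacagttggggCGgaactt
Plagl1: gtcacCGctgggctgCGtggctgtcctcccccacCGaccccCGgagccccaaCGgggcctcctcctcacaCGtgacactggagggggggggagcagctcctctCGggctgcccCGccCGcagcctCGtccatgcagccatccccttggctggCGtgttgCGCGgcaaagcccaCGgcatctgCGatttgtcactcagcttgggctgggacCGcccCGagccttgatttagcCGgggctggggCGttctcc
Phlda2: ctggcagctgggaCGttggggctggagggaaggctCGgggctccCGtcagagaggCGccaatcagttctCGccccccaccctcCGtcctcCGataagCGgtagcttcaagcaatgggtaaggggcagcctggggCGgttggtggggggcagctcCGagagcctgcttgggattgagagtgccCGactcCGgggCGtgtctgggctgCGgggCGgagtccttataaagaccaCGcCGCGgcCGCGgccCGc
Zrsr1: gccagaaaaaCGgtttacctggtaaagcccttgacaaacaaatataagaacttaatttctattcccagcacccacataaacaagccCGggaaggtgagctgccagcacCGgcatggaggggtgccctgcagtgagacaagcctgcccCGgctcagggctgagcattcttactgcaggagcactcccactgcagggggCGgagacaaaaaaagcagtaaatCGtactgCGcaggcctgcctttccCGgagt
The 5 windows held 7, 2, 19, 21 and 8 CpG, in the order printed. Of these genes, Phlda2, Plagl1 and Airn were called higher with T247 at the 4-cell stage and Magel2 at the 1-cell stage, and the window of Airn held the fewest CpG of the 5. Promoter windows were found for 36 of the 45 genes (58 windows, since 13 genes had several), with a median of 10 CpG, against 6 over all 32851 windows. The letters TGCCGC, which the imprint-keeping factor ZFP57 is known to bind when methylated, were found on either strand in windows of 8 of the 36 genes (22.2%), and in 9.84% of all genes with a window, where genes with several windows had more than 1 chance to hold them. By window these were 9 of 58 (15.5%) and 8.68% of all, and 2 of the 9 were overlapping windows of Mest. The genes were Plagl1, Mest, Meg3, Nap1l5, Calcr, Copg2, Osbpl5 and Zim1. This is a count of letters, and binding was not measured. TGCCGC itself holds a CpG, and the shares do not allow for the higher CpG count in windows of the imprinted genes. No window was found for Peg10, Kcnq1, Cdkn1c, Impact, H19, Sgce, Dcn, Rtl1 and Smoc1.

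In oocytes and zygotes, RNA of the maternally expressed genes was detected more widely than that of the paternally expressed genes, and the difference was smaller after the 4-cell stage. Of the 20 maternally expressed genes, 18 were well above background on all 3 GV arrays, 17 on all 3 MII arrays and 17 on all 3 untreated 1-cell arrays. Of the 23 paternally expressed genes, 11, 9 and 10 were. At the 8-cell stage the counts were 12 of 20 and 14 of 23, and in blastocysts 14 of 20 and 16 of 23, while over all named genes the share was 66.4% in GV oocytes, 58.6% in 1-cell embryos and 61.7% in blastocysts. In T247 2-cell embryos 17 of 23 paternally and 17 of 20 maternally expressed genes were detected on all 3 arrays, against 13 and 15 in untreated ones, while the share over all named genes was 67.7% against 60.5%. These are counts of genes and were not tested. An array has 100 oocytes or embryos whatever their cell number, and fewer cells with an RNA and less RNA per cell cannot be told apart.

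**Figure D1:**
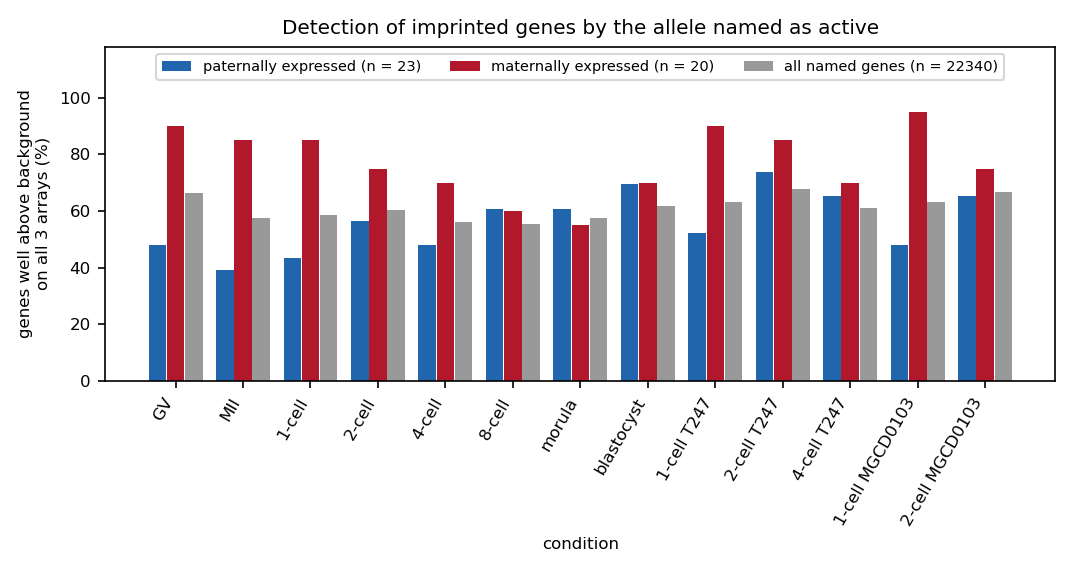
Share of genes (%) that were well above background on all 3 arrays of each of 13 conditions, for 23 paternally expressed genes, 20 maternally expressed genes and all 22340 named genes. The maternally expressed genes stand above the others from GV oocytes to 1-cell embryos, and the classes are close together from the 8-cell stage on.

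From GV to MII oocytes, 45.6% of all genes were called (0.346% higher and 45.2% lower), and so were 16 of the imprinted genes, 15 lower and 1 higher. The median over the imprinted genes was -0.85, beside the -0.92 of all genes. Under scaling to the 75th percentile the split was 10 higher and 5 lower, beside 23.8% and 23.2% of all genes, and under quantile normalization 8 and 4, beside 21.5% and 23.7%, so that only changes far from the median are named. Cdkn1c, which encodes the cyclin-dependent kinase inhibitor p57, measured 10.98, 11.07 and 11.07 in GV oocytes and 12.79, 12.78 and 12.83 in MII oocytes, with no overlap, and rose against this shift (log2 fold change 1.76, SE 0.30, adjusted p = 5.56e-06). Slc22a18, a transporter-like gene of the Kcnq1 domain, fell from 8.34, 8.06 and 7.99 to 4.53, 4.08 and 3.47 (log2 fold change -4.11, SE 0.47, adjusted p = 6.61e-09), with 1 of 3 MII arrays well above background. Ube3a, a ubiquitin ligase, fell from 12.02 ± 0.05 (SD, n = 3) to 9.30 ± 0.09 (log2 fold change -2.72, SE 0.14, adjusted p = 6.46e-17). Sgce, a sarcoglycan, fell at least 5.19-fold (adjusted p = 3.11e-10), from 6.56 ± 0.29 to 3.40 ± 0.88 with no MII array well above background.

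Between MII oocytes and 1-cell embryos 19.8% of all genes (14.8% higher and 5.07% lower) and 5 imprinted genes, 1 higher and 4 lower, were called. Mest, a hydrolase-like gene that is paternally expressed, measured 14.11, 13.92 and 13.97 in MII oocytes and 11.95, 12.64 and 12.21 in 1-cell embryos (log2 fold change -1.74, SE 0.25, adjusted p = 1.43e-06). Its 2 other probes gave -0.70 and 0.59 for this step, so that the probes differed in sign. Kcnq1, a potassium channel subunit, measured 12.39, 12.09 and 12.15 and then 10.00, 10.75 and 10.27 (log2 fold change -1.87, SE 0.39, adjusted p = 0.000197), and its second probe gave -1.89. Cd81, a tetraspanin, and Dcn, the proteoglycan decorin, also fell (-2.07 and -1.70 on the log2 scale), and Zim1, a zinc finger gene of the Peg3 domain, rose (log2 fold change 1.08, SE 0.30, adjusted p = 0.0038). The Zim1 call was lost without MII replicate 2 or 3 and without 1-cell replicate 1. Under the 75th percentile the split was 0 higher and 6 lower, beside 9.53% and 10.0% of all genes, and under quantile normalization 0 and 4, beside 10.5% and 7.61%.

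Of the paternally expressed genes more rose than fell at the 2-cell stage, when the embryo's own genome becomes active, and of the maternally expressed genes more fell than rose. Of 23 paternally expressed genes 11 rose and 2 fell, with a median log2 change of 1.11 over the 21 tested, and of 20 maternally expressed genes 2 rose and 7 fell, with a median of -0.61 over 19. Over all genes 19.4% were called higher, 32.2% lower and 51.5% in all, with the median given above. In 8 of the 11 paternally expressed genes no untreated 1-cell array was well above background, and such genes could pass the filter only by rising at some condition. Without replicate 1 of the 2-cell embryos the same 22 of 22 imprinted genes were called, beside 55.8% of all genes. Without replicate 2 there were 20, 10 higher and 10 lower, beside 47.7%, with Nnat, Phlda2 and Sgce lost and Kcnq1 added. Without replicate 3 there were 19, 9 higher and 10 lower, beside 48.7%, with Dlk1, Nnat, Peg10 and Phlda2 lost and Kcnq1 added. Under quantile normalization Nnat, Peg10 and Sgce were not called, and under the 75th percentile Cd81 was not.

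Zrsr1, a U2AF-related splicing gene, measured 6.87, 6.56 and 6.83 in 1-cell embryos and 10.64, 10.70 and 10.72 in 2-cell embryos (log2 fold change 3.94, SE 0.15, adjusted p = 1.54e-19). Ascl2, a basic helix-loop-helix factor needed by the trophoblast, rose from 5.55, 5.14 and 5.29 to 8.98, 12.77 and 12.13 (log2 fold change 5.97, SE 0.57, adjusted p = 1.55e-10), with 2-cell replicate 1 far below the other two, and without it by 7.12 on the log2 scale. Kcnq1ot1, the noncoding RNA of the Kcnq1 domain, was not well above background on any GV, MII or 1-cell array and measured 6.04, 5.53 and 4.69 at the 2-cell stage, at least 2.11-fold higher (adjusted p = 4.45e-08). Airn, its counterpart at Igf2r, rose from 8.21, 8.59 and 8.67 to 11.32, 9.64 and 9.88 (log2 fold change 1.79, SE 0.30, adjusted p = 3.71e-06). Here replicate 1 was the highest, and without it the log2 change was 1.27. A second Airn probe went the other way, with a log2 change of -1.17. Of the remaining paternally expressed genes that rose, Impact was at least 12.6-fold, Peg10 at least 3.21-fold, Sfmbt2 at least 2.37-fold, Magel2 at least 1.97-fold and Dlk1 at least 1.73-fold higher. Without 2-cell replicate 1 these limits were 29.5-fold for Impact, 3.50-fold for Peg10, 8.68-fold for Sfmbt2, 3.44-fold for Magel2 and 1.78-fold for Dlk1. The second Impact probe had a log2 change of -0.98, so the 2 probes of that gene disagreed.

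Among the maternally expressed genes that fell to the 2-cell stage, Copg2, a coatomer subunit, measured 12.22, 12.26 and 12.05 and then 11.42, 9.61 and 9.71 (log2 fold change -1.93, SE 0.28, adjusted p = 3.64e-07), and without 2-cell replicate 1 its log2 change was -2.52. Ube3a fell from 9.87 ± 0.11 to 8.25 ± 0.08 (log2 fold change -1.62, SE 0.14, adjusted p = 1.76e-11). Slc22a3, an organic cation transporter next to Igf2r, fell at least 1.95-fold (adjusted p = 5.81e-05) and was not well above background on any untreated array after the 1-cell stage.

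The step from 2-cell to 4-cell gave 22 imprinted genes that fell and 7 that rose, 29 of the 42 tested, where 58.0% of all genes were called (24.0% higher and 34.0% lower). The median over the imprinted genes was -1.18, against -0.32 over all genes, with -1.08 for the paternally and -1.70 for the maternally expressed genes. Plagl1, a zinc finger transcription factor, measured 10.15, 10.89 and 10.80 in 2-cell embryos and 4.60, 4.80 and 4.69 in 4-cell embryos (log2 fold change -5.92, SE 0.42, adjusted p = 1.03e-13), and its 3 other probes gave -6.39, -2.53 and -0.40. Osbpl5, an oxysterol-binding protein gene, fell from 11.02, 10.54 and 10.49 to 5.73, 5.70 and 5.57 (log2 fold change -5.02, SE 0.26, adjusted p = 5.6e-17). Gnas, which encodes a stimulatory G protein subunit and other transcripts, fell from 13.58 ± 0.08 to 10.21 ± 0.13 (log2 fold change -3.37, SE 0.15, adjusted p = 1.97e-18), and its other probes above background gave -0.69 and -1.57.

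The 7 genes that rose at this step included Igf2r and Peg12. Igf2r, the receptor that takes up and degrades IGF2, measured 8.98, 9.32 and 9.24 at the 2-cell stage and 13.19, 13.32 and 13.37 at the 4-cell stage, with no overlap (log2 fold change 4.11, SE 0.11, adjusted p = 6.29e-23), while Airn fell over the same step (log2 fold change -2.99, SE 0.30, adjusted p = 1.99e-10). Peg12, a FRAT family gene, was not well above background on any GV, MII or 1-cell array, measured 1.94, 4.59 and 4.50 at the 2-cell stage and 7.86, 7.76 and 7.95 at the 4-cell stage (log2 fold change 4.18, SE 0.44, adjusted p = 7.1e-10), and its second probe gave 1.09. Cd81, Impact, Sgce, Snrpn, a spliceosome component, and Usp29, a ubiquitin protease relative, also rose, with log2 changes of 3.09, 2.83, 2.19, 1.69 and 1.67. The Usp29 rise followed a change of -2.38 from the 1-cell stage, and in 2-cell embryos it measured 6.78, 4.24 and 4.15, with replicate 1 apart. Without 2-cell replicate 1 the changes of Usp29, Impact and Peg12 were 2.53, 1.61 and 3.31 on the log2 scale, and 30 imprinted genes were called in place of 29, beside 57.3% of all genes.

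After the 4-cell stage all 4 genes whose imprint is known to rest on histone methylation rose, each from the 8-cell stage to the morula. From 4-cell to 8-cell, where 12.9% of all genes were called (6.88% higher and 6.02% lower), 13 imprinted genes were, 6 higher and 7 lower. Slc38a4, an amino acid transporter, was not well above background on any GV to 4-cell array and then measured 6.14, 5.39 and 5.53 in 8-cell embryos, 9.35, 9.13 and 9.51 in morulae and 11.49, 11.13 and 11.22 in blastocysts. It rose at least 2.65-fold in the first step, by 3.65 on the log2 scale in the second (SE 0.47, adjusted p = 1.04e-07) and by 1.95 in the third (SE 0.47, adjusted p = 0.000953). Smoc1, a secreted calcium-binding protein, measured 4.15, 3.68 and 3.44 in 4-cell embryos, none well above background, 5.50, 6.39 and 5.73 in 8-cell embryos and 9.26, 9.15 and 9.02 in morulae (log2 fold change 3.27, SE 0.47, adjusted p = 5.79e-07). Gab1, an adaptor of receptor tyrosine kinases, rose from 6.29 ± 0.27 through 8.20 ± 0.34 to 9.51 ± 0.12 (log2 fold changes 1.91 and 1.30). Sfmbt2, a polycomb protein, rose from 6.04, 6.47 and 5.56 in 8-cell embryos to 10.23, 10.20 and 10.02 in morulae (log2 fold change 4.13, SE 0.75, adjusted p = 2.23e-05), and its 2 other probes gave 2.79 and 2.46. All 4 genes were called higher from 8-cell to morula, with a median of 3.46, where 34.1% of all genes were called (28.2% higher and 5.87% lower). Over the imprinted genes as a whole that step gave 13 higher and 2 lower, with a median of 0.53, close to the 0.49 of all genes. Gab1 was not called at this step under the 75th percentile or quantile normalization, and the other 3 were. For the imprinted genes together, under the 75th percentile the split was 7 higher and 4 lower, beside 15.1% and 12.1% of all genes, and under quantile normalization 6 and 4, beside 13.9% and 10.5%.

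**Figure D2:**
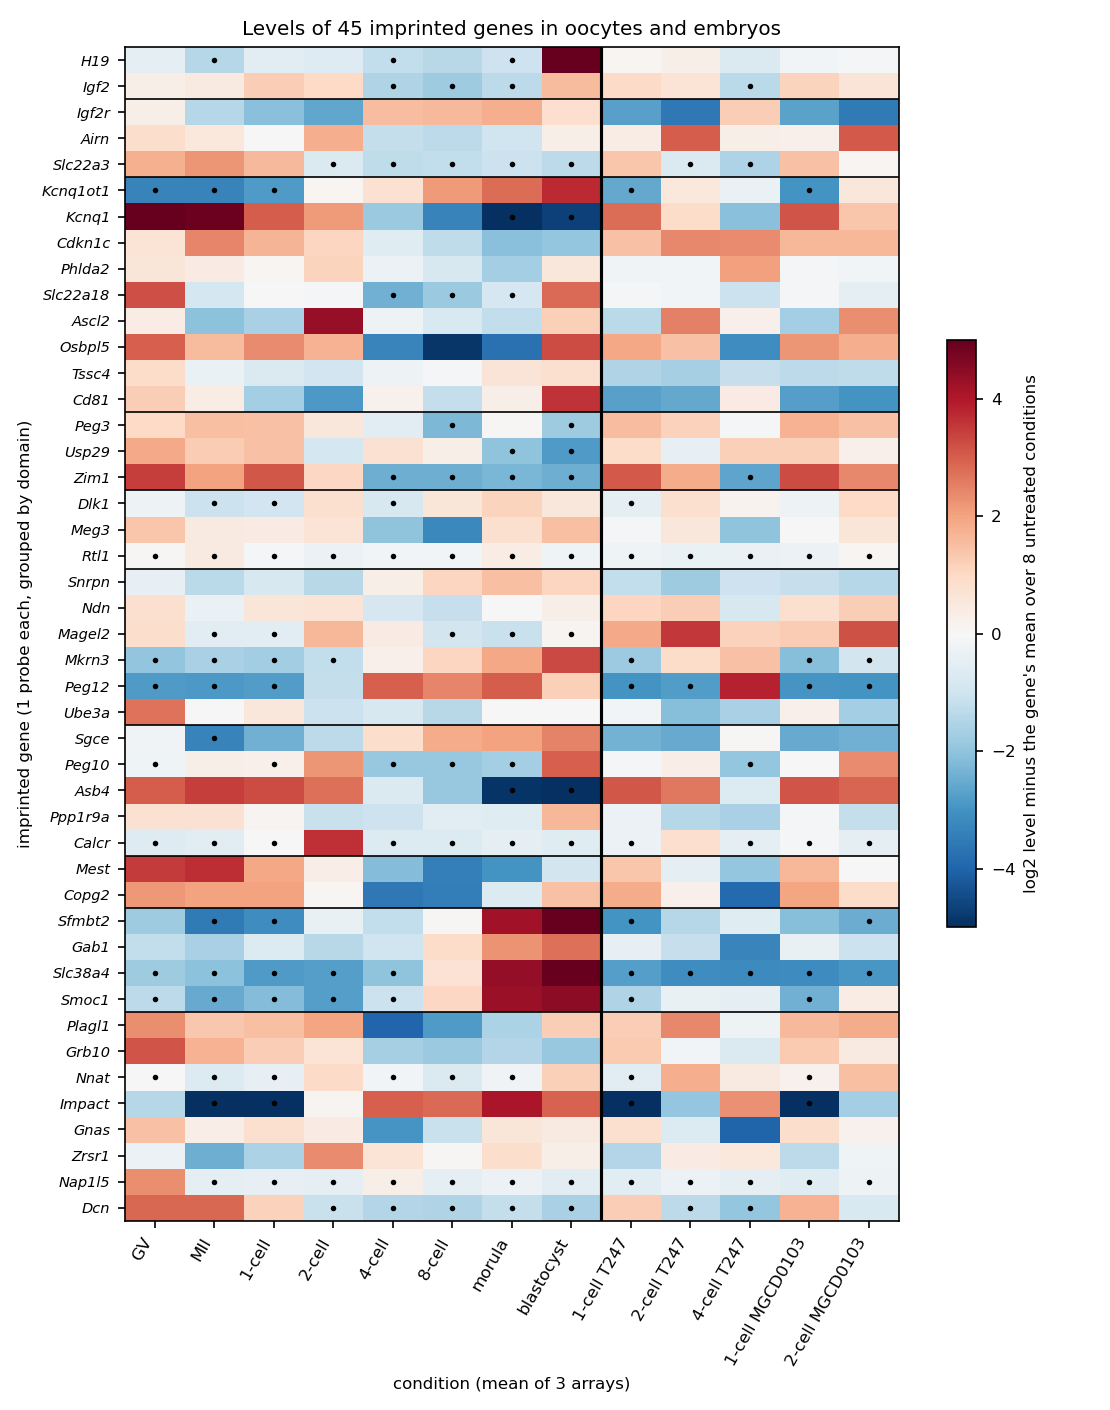
Levels of the 45 imprinted genes (rows, grouped by domain) over 8 untreated and 5 inhibitor conditions (columns, mean of 3 arrays), as log2 level minus the gene's own mean over the untreated conditions. A black dot marks a condition with no array well above background. Slc38a4, Sfmbt2, Gab1 and Smoc1 are red in morulae and blastocysts, and Rtl1 has a dot in every column.

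H19 and Igf2 were higher in blastocysts than in morulae. From morula to blastocyst 26.6% of all genes were called (19.5% higher and 7.07% lower), and 15 imprinted genes rose and 3 fell, with a median of 0.52 against 0.18 over all genes. H19, the noncoding RNA that shares its control region with Igf2, measured 3.63, 4.08 and 4.21 in morulae, none well above background, and 12.63, 10.72 and 11.72 in blastocysts, at least 147-fold higher (adjusted p = 1.42e-15). Of its 7 probes, 6 were well above background on at least 2 arrays of a group, and they gave log2 changes of 6.63 to 9.64. Igf2, the growth factor, measured 2.19, 3.26 and 2.27 and then 5.52, 5.49 and 5.36, at least 1.96-fold higher (adjusted p = 5.78e-10).

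The Kcnq1 domain had 5 of its 9 genes called higher in blastocysts and 0 lower. Osbpl5 returned from 4.77, 3.58 and 3.91 in 8-cell embryos to 12.99, 11.91 and 11.80 in blastocysts (log2 fold change 7.02, SE 0.26, adjusted p = 4.56e-19 from morula). Slc22a18 rose at least 9.51-fold. Cd81, Ascl2 and Phlda2, which limits placental growth, rose by 3.30, 2.42 and 2.26 on the log2 scale. Kcnq1 itself went from 12.30, 12.27 and 12.30 in GV oocytes to 5.06, 5.54 and 5.75 in 4-cell embryos and was not well above background on any morula or blastocyst array. Kcnq1ot1 measured 7.25, 7.33 and 7.78 in 8-cell embryos and 9.41, 8.32 and 9.41 in blastocysts. Asb4, a ubiquitin ligase adaptor of the Sgce-Peg10 cluster, also fell. It measured 12.18, 11.75 and 11.85 in MII oocytes and 6.98, 6.11 and 6.72 in 8-cell embryos, fell at least 4.33-fold to the morula (adjusted p = 2.11e-08) and was not above background in blastocysts. Peg10, a retrotransposon-derived gene needed in the placenta, rose at least 5.09-fold from morula to blastocyst, and Copg2, Mest and Ppp1r9a, a neurabin, by 2.14, 2.07 and 2.26. Blastocysts hold trophectoderm, the outer cell layer that forms the placenta. Its 7 marker genes had a mean level of 11.8 to 12.1 on the morula arrays and 14.9 to 15.1 on the blastocyst arrays, and their part in these rises was not tested.

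**Figure D3:**
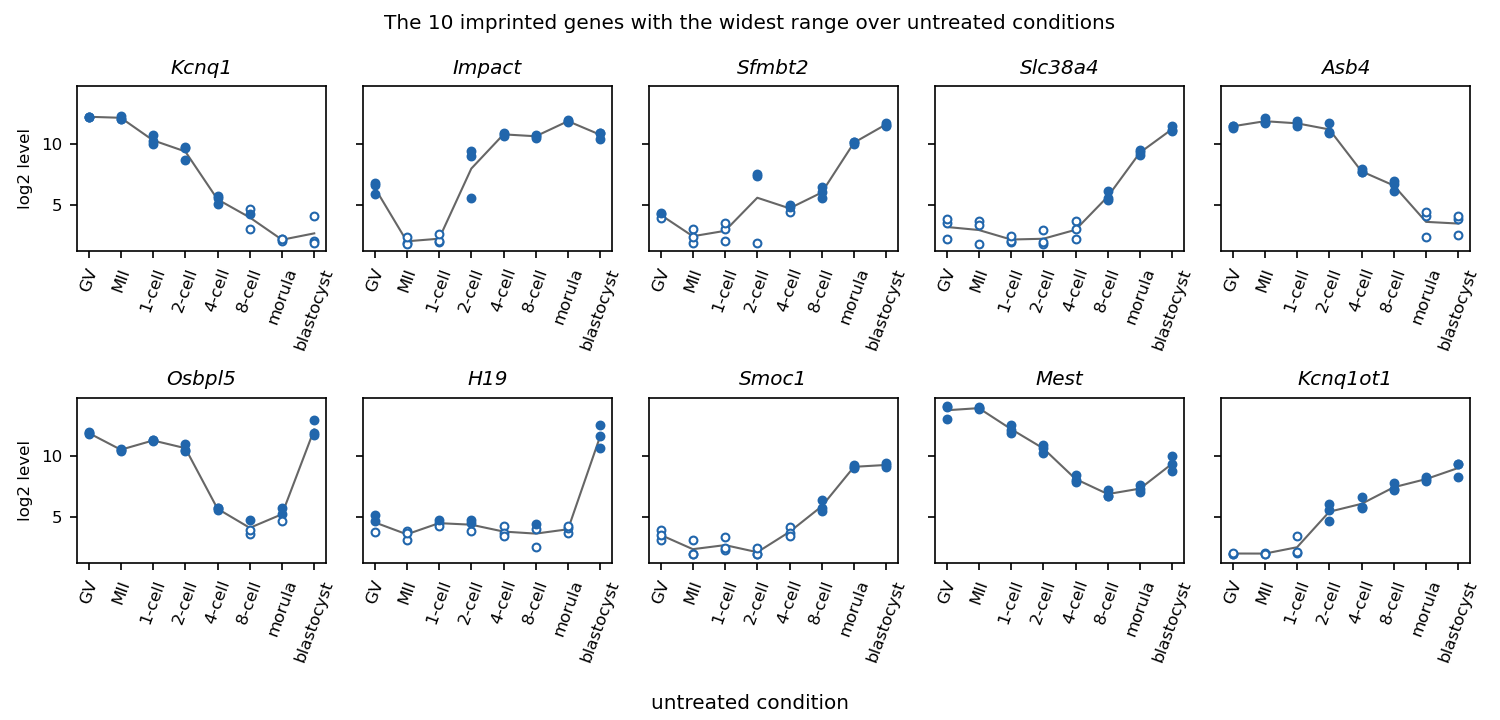
Log2 level on each array (points, filled where well above background) and the mean (line) over 8 untreated conditions for the 10 imprinted genes with the widest range of condition means, from Kcnq1 with a range of 10.2 to Kcnq1ot1 with 7.09. Kcnq1, Asb4 and Mest go down from the oocyte to the 8-cell stage, H19 and Osbpl5 jump in blastocysts, and a point of Sfmbt2 and of Impact at the 2-cell stage lies far below the other 2.

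At the 1-cell stage, shortly after the exposure ended, 1 imprinted gene was called with either inhibitor. With T247 5.26% of all genes were called (4.87% higher and 0.392% lower), and with MGCD0103 3.39% (3.12% and 0.261%), and among the imprinted genes the call in both was Magel2, a MAGE family gene of the Prader-Willi region. It measured 2.03, 3.72 and 3.68 in untreated 1-cell embryos, none well above background, 5.59, 5.60 and 5.52 with T247 and 4.68, 5.15 and 4.96 with MGCD0103, all well above background and with no overlap. Magel2 was at least 2.34-fold higher with T247 (adjusted p = 0.000944) and at least 1.5-fold higher with MGCD0103 (adjusted p = 0.0203). The T247 call remained in each of the 6 fits that left out 1 array, and the MGCD0103 call was lost without untreated replicate 1, the lowest array, and without MGCD0103 replicate 2 or 3. With normexp background correction neither Magel2 call remained. The MGCD0103 call was also lost under quantile normalization and in a fit of only the arrays compared. Both comparisons share the 3 untreated arrays. The medians over the imprinted genes were -0.09 and -0.10, and those of all genes -0.03 and 0.08.

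At the 2-cell stage the count of called imprinted genes was higher, and so was that of all genes. With T247 15 imprinted genes were called, 5 higher and 10 lower, beside 25.3% of all genes (10.4% higher and 14.9% lower), and with MGCD0103 12, 5 higher and 7 lower, beside 28.0% (13.3% and 14.7%). The shares of the 42 tested were 35.7% and 28.6%. Under the 75th percentile the T247 split was 6 higher and 5 lower, and under quantile normalization 5 and 7. Over all genes these splits were 13.2% higher and 10.0% lower and 14.1% and 11.3%. The median log2 change of all genes with T247 was -0.025 and 0.0062 there, beside -0.23 under the main scaling. Fewer imprinted genes were called lower in both, so that falls with T247 near the threshold can depend on the scaling. Without untreated replicate 1 the counts were 17, beside 31.4% of all genes, and 14, beside 37.7%. Of the 15 and 12 genes, 12 and 11 remained called. The genes that joined without it were Igf2r, Mest, Sfmbt2, Usp29 and Zim1 with T247 and Copg2, Igf2r and Kcnq1 with MGCD0103, and those that left were Cdkn1c, Magel2 and Peg10 with T247 and Magel2 with MGCD0103. Without untreated replicate 2 the counts were 9, beside 22.7% of all genes, and 5, beside 22.4%. Airn, Ascl2, Impact and Sgce left both, Kcnq1 and Peg10 left the T247 list, and Sfmbt2, Usp29 and Zim1 left the MGCD0103 list. Without untreated replicate 3 they were 13, beside 23.4%, and 9, beside 24.0%: Ascl2, Kcnq1 and Peg10 were lost and H19 joined with T247, and Impact, Sfmbt2 and Usp29 were lost with MGCD0103. Some stage markers differed as well. The mean of the 7 trophectoderm genes was 7.68 to 8.10 on untreated arrays, 8.98 to 9.15 with T247 and 9.09 to 9.28 with MGCD0103. That of the 9 oocyte genes was 11.2 to 11.4 untreated, 10.7 to 10.9 with T247 and, within the untreated range, 11.4 on each MGCD0103 array. The 5 measured 2-cell genes overlapped, with 11.2 to 12.0 untreated, 11.6 to 11.8 with T247 and 11.2 to 11.3 with MGCD0103. So did the 5 inner cell mass genes, with 5.76 to 6.68, 6.13 to 6.43 and 6.27 to 6.43. Their part in the results was not tested.

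Genes of the Prader-Willi region did not move as one. Magel2 measured 3.70, 6.02 and 6.23 in untreated 2-cell embryos, 7.31, 7.34 and 6.94 with T247 and 6.60, 6.97 and 7.03 with MGCD0103, and every treated array was above every untreated one (log2 fold change 1.88, SE 0.51, adjusted p = 0.00284 with T247 and log2 fold change 1.55, SE 0.51, adjusted p = 0.0122 with MGCD0103). Untreated replicate 1 was the lowest by far, and without it the log2 fold changes were 1.07 (adjusted p = 0.0532) and 0.74 (adjusted p = 0.175), not called. Mkrn3, a ring finger gene, was not well above background on any untreated or MGCD0103 array and measured 5.24, 5.06 and 4.47 with T247, at least 1.78-fold higher (adjusted p = 2.35e-05). Its second probe was not above background. Peg12 measured 1.94, 4.59 and 4.50 untreated, where 2 arrays were well above background, 2.23, 1.78 and 2.23 with T247 and 1.89, 1.89 and 1.85 with MGCD0103, none above background. It passed the test in both (adjusted p = 0.00306 and 0.00105), with no bound on the fold above 1. Without untreated replicate 1 it was at least 1.80-fold lower with T247 and at least 1.61-fold lower with MGCD0103. Ube3a fell with T247 (log2 fold change -1.06, SE 0.14, adjusted p = 2.73e-07), near the threshold and in a comparison where all genes shifted by -0.23. Ndn and Snrpn were called with neither inhibitor.

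Maternally expressed genes of the Kcnq1 domain moved in both directions. Phlda2 measured 7.67, 8.89 and 8.78 untreated, 7.30, 7.24 and 7.07 with T247 and 7.29, 7.01 and 7.25 with MGCD0103, with no overlap of treated and untreated arrays (log2 fold change -1.24, SE 0.27, adjusted p = 0.000273 with T247 and log2 fold change -1.26, SE 0.27, adjusted p = 0.000232 with MGCD0103). Without untreated replicate 1 the falls were larger, -1.63 and -1.65. Ascl2 measured 8.98, 12.77 and 12.13 untreated, 9.43, 9.50 and 9.49 with T247 and 8.97, 9.19 and 9.68 with MGCD0103 (log2 fold change -1.82, SE 0.57, adjusted p = 0.00874 with T247 and log2 fold change -2.01, SE 0.57, adjusted p = 0.00395 with MGCD0103). Here the groups overlapped through untreated replicate 1, and without it the log2 fold changes were -2.97 and -3.17, while without replicate 2 they were -1.08 and -1.28 and not called. Cdkn1c measured 10.33, 12.15 and 11.85 untreated and 12.92, 12.75 and 12.59 with T247 (log2 fold change 1.31, SE 0.30, adjusted p = 0.000475), and without replicate 1 the difference was 0.75 and no longer called. With MGCD0103 it measured 11.96, 11.95 and 12.21 and was not called. Kcnq1 fell with T247, from 8.71, 9.74 and 9.80 to 8.35, 8.20 and 8.12 (log2 fold change -1.20, SE 0.39, adjusted p = 0.0105), a call lost without untreated replicate 2 or 3 (adjusted p = 0.0501 and 0.0557), and measured 8.62, 8.55 and 8.90 with MGCD0103.

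Both noncoding RNAs that silence domains were measured in these embryos. Airn measured 11.32, 9.64 and 9.88 untreated, 11.38, 11.55 and 11.59 with T247 and 11.53, 11.59 and 11.52 with MGCD0103 (log2 fold change 1.23, SE 0.30, adjusted p = 0.000839 with T247 and log2 fold change 1.27, SE 0.30, adjusted p = 0.000659 with MGCD0103), and without untreated replicate 1, which lay next to the treated arrays, the rises were 1.75 and 1.79. Without replicate 2 they were 0.91 and 0.95, under the threshold. Of its 3 other probes, those well above background gave log2 fold changes of 0.05 and 3.33 with T247 and 0.39 and 2.62 with MGCD0103. Kcnq1ot1 measured 6.04, 5.53 and 4.69 untreated, 5.85, 6.01 and 5.70 with T247 and 6.04, 6.01 and 5.56 with MGCD0103, and was not called. Igf2r, the gene that Airn silences on the paternal copy, measured 8.98, 9.32 and 9.24 untreated, 8.03, 8.22 and 8.33 with T247 and 8.14, 8.19 and 8.32 with MGCD0103. Its log2 fold changes of -0.99 and -0.96 lay just short of the threshold and passed it without replicate 1 (-1.09 and -1.06).

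Zrsr1 measured 10.64, 10.70 and 10.72 in untreated 2-cell embryos, 9.06, 8.55 and 8.54 with T247 and 8.06, 8.00 and 8.29 with MGCD0103, with wide gaps between the groups (log2 fold change -1.97, SE 0.15, adjusted p = 1e-11 with T247 and log2 fold change -2.57, SE 0.15, adjusted p = 2.89e-14 with MGCD0103). Replicate 1 agreed here with the others, and without it the values were -1.99 and -2.59. In untreated embryos Zrsr1 is the gene that rose by 3.94 from the 1-cell stage, and in treated 1-cell embryos it measured 7.05, 6.73 and 6.81 and 7.23, 6.98 and 6.86, near the untreated 1-cell arrays. Impact, an inhibitor of the GCN2 kinase, measured 5.55, 9.44 and 9.01 untreated, 5.98, 5.97 and 5.87 with T247 and 6.29, 6.00 and 6.15 with MGCD0103 (log2 fold change -2.06, SE 0.58, adjusted p = 0.00362 with T247 and log2 fold change -1.85, SE 0.58, adjusted p = 0.00817 with MGCD0103). Its untreated replicate 1 lay below the treated arrays. Without it the log2 fold changes were -3.29 and -3.08, and without replicate 2 they were -1.34 and -1.13 and not called. The second probe of the gene gave 0.24 and 0.42. Gnas fell with T247 (log2 fold change -1.08, SE 0.15, adjusted p = 5.08e-07), but under the 75th percentile and quantile normalization it was not called.

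Sgce measured 4.91, 6.00 and 5.36 untreated, 4.33, 3.93 and 4.36 with T247 and 4.58, 3.73 and 4.61 with MGCD0103 (log2 fold change -1.22, SE 0.31, adjusted p = 0.00178 with T247 and log2 fold change -1.12, SE 0.31, adjusted p = 0.00381 with MGCD0103), and each treated array was below each untreated one. Without untreated replicate 1 the values were -1.47 and -1.37, and without replicate 2 they were -0.93 and -0.83, under the threshold. Its neighbour Peg10 measured 5.77, 5.94 and 6.36 untreated and 3.89, 4.55 and 4.05 with T247 (log2 fold change -1.86, SE 0.77, adjusted p = 0.0433). With MGCD0103 it measured 4.30, 9.95 and 4.37, with replicate 2 far above the others. The T247 call of Peg10 was lost in each of the 6 fits that left out 1 array.

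In the Peg3 domain Zim1 and Usp29 were called higher with MGCD0103. Zim1 measured 6.98, 4.60 and 5.05 untreated, 6.27, 6.37 and 6.38 with T247 and 6.93, 6.77 and 6.97 with MGCD0103, and was called with MGCD0103 (log2 fold change 1.35, SE 0.30, adjusted p = 0.000367). Usp29 measured 6.78, 4.24 and 4.15 untreated, 5.09, 5.81 and 5.72 with T247 and 5.98, 6.37 and 6.27 with MGCD0103, and was called with MGCD0103 too (log2 fold change 1.15, SE 0.42, adjusted p = 0.0215). In both genes untreated replicate 1 lay above every treated array, and the other 2 lay below every treated one. Without replicate 1 the rises with MGCD0103 were 2.07 and 2.01, and those with T247, 1.51 and 1.35, were called too. Without replicate 2 the MGCD0103 differences were 0.88 for Zim1 and 0.74 for Usp29 (adjusted p = 0.0103 and 0.186), and without replicate 3 they were 1.10 and 0.70 (adjusted p = 0.00646 and 0.201), so that Usp29 was called in neither fit and Zim1 only without replicate 3.

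Among the genes with a histone-based imprint, Smoc1 appeared early. It measured 1.89, 1.90 and 2.42 in untreated 2-cell embryos, none well above background, 4.62, 4.29 and 4.47 with T247, all above, and 4.08, 6.44 and 5.12 with MGCD0103, 2 of 3 above. It was at least 1.29-fold higher with T247 (adjusted p = 8.67e-05) and at least 2.18-fold higher with MGCD0103 (adjusted p = 1.99e-06). Sfmbt2 measured 1.84, 7.52 and 7.40 untreated, 4.52, 4.83 and 4.17 with T247 and 3.30, 3.66 and 3.47 with MGCD0103, none above background in the last. By the group means it was at least 3.31-fold lower with MGCD0103 (adjusted p = 0.0189), but untreated replicate 1 lay below every MGCD0103 array. Without untreated replicate 1 it was at least 12.1-fold lower with MGCD0103 and was called lower with T247 as well (-2.95), and without replicate 2 or 3 the MGCD0103 call was lost (adjusted p = 0.231 and 0.209). Slc38a4 was not well above background in any 2-cell group, and Gab1 was called with neither inhibitor. Calcr, which stayed outside the tests, measured 1.81, 8.51 and 8.42 in untreated 2-cell embryos, 2 of 3 above background, 3.41, 3.22 and 3.64 with T247 and 1.74, 1.78 and 2.71 with MGCD0103. Rtl1 was not well above background on any of the 39 arrays, and Nap1l5 was so on 2 GV arrays alone.

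**Figure D4:**
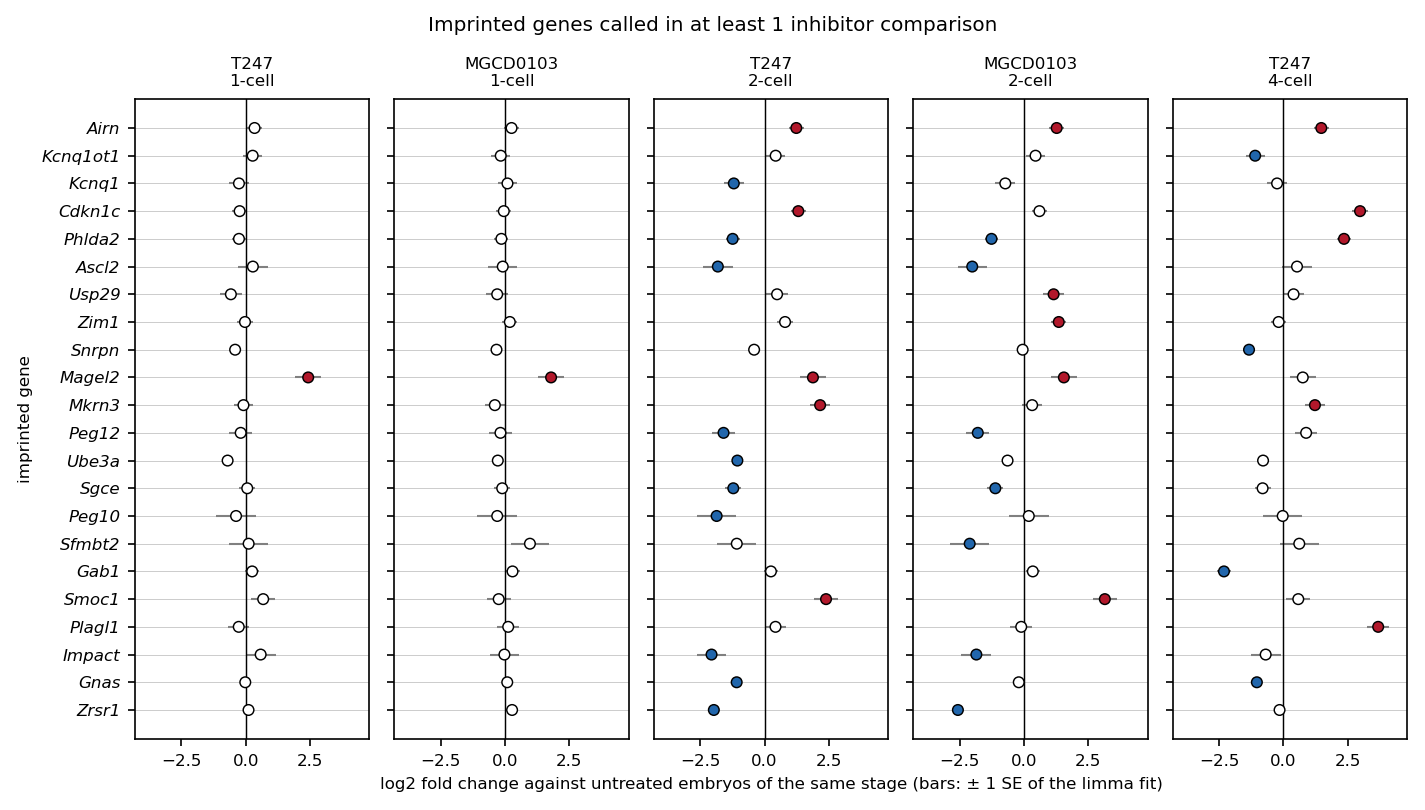
Log2 fold change against untreated embryos of the same stage (points, with ± 1 SE of the fit) for the 22 imprinted genes called in at least 1 of 5 inhibitor comparisons. Red points were called higher and blue points lower, open points were not called, and fits of genes with no array above background in a group are included. Magel2 is the red point in both 1-cell panels, and Plagl1, Cdkn1c and Phlda2 lie farthest right at the 4-cell stage.

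By the 4-cell stage, T247 embryos had 9 called imprinted genes, 5 higher and 4 lower, or 21.4% of the 42 tested, beside 16.2% of all genes (11.0% higher and 5.27% lower). The largest rises were those of Plagl1, Cdkn1c and Phlda2. Plagl1 measured 4.60, 4.80 and 4.69 in untreated 4-cell embryos and 8.44, 8.91 and 7.78 with T247 (log2 fold change 3.68, SE 0.42, adjusted p = 5.53e-08). Untreated Plagl1 had measured 10.62 ± 0.41 (SD, n = 3) at the 2-cell stage, and the T247 arrays at the 4-cell stage lay between the 2 stages. Its 3 other probes gave 4.09, 0.67 and 0.60. Cdkn1c measured 9.53, 10.31 and 9.38 untreated and 12.90, 13.24 and 12.00 with T247 (log2 fold change 2.98, SE 0.30, adjusted p = 7.26e-09), and 2 of the 3 T247 arrays lay above every untreated 2-cell array. Phlda2 measured 7.40, 6.99 and 6.71 untreated and 9.66, 9.39 and 9.11 with T247 (log2 fold change 2.35, SE 0.27, adjusted p = 5.97e-08), so that the T247 embryos were lower than untreated ones in the 2-cell group and higher in the 4-cell group. Between these stages the effect of T247 differed for 11 imprinted genes, 8 higher and 3 lower, beside 25.9% of all genes (17.6% and 8.29%). For Phlda2 the difference was 3.59 on the log2 scale (SE 0.38, adjusted p = 2.28e-08).

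Airn rose from 7.13, 7.39 and 7.34 to 8.83, 9.10 and 8.33 (log2 fold change 1.47, SE 0.30, adjusted p = 0.000187), and its one other probe above background gave 0.88. Igf2r, which Airn silences on the paternal copy, was not called at this stage. Mkrn3 rose from 3.72, 4.80 and 4.27, with 1 array well above background, to 5.24, 5.41 and 5.80 (log2 fold change 1.22, SE 0.38, adjusted p = 0.0108). Gab1, with no call at the 2-cell stage, fell from 6.24, 6.58 and 6.05 to 3.42, 3.90 and 4.62, where 1 array was well above background (log2 fold change -2.31, SE 0.27, adjusted p = 1.17e-07). Snrpn fell from 10.78, 10.86 and 11.00 to 9.70, 9.41 and 9.51 (log2 fold change -1.34, SE 0.15, adjusted p = 4.69e-08), and its second probe above background gave -1.28. Kcnq1ot1 fell from 5.77, 5.83 and 6.64 to 4.79, 5.03 and 5.10 (log2 fold change -1.10, SE 0.37, adjusted p = 0.0182), and Gnas from 10.27, 10.30 and 10.06 to 9.09, 8.92 and 9.52 (log2 fold change -1.03, SE 0.15, adjusted p = 2.43e-06). Zrsr1, which had been lower at the 2-cell stage, measured 9.11, 8.78 and 9.06 untreated and 8.84, 8.88 and 8.77 with T247 and was not called. Magel2 measured 3.98, 3.81 and 4.47 and 4.69, 4.39 and 5.44 and was not called either. Smoc1, which had been called higher at the 2-cell stage, was not called here. When 1 array was left out, Gnas was lost without untreated replicate 2 or T247 replicate 1 or 2, Kcnq1ot1 without untreated replicate 3 or T247 replicate 1, and Mkrn3 without untreated replicate 1. T247 arrays were on slides 4 (replicate 1) and 5 (replicates 2 and 3) here. The mean of the 5 measured 2-cell marker genes was 7.97 to 8.66 on untreated 4-cell arrays and 9.30 to 9.79 with T247, and that of the 9 oocyte genes 8.07 to 8.17 and 8.07 to 8.16. Their part in the rises was not tested. MGCD0103 was not measured at the 4-cell stage. The authors report that embryos exposed to this inhibitor were unable to reach that stage, and propose that the other inhibitor may delay development. Whether arrest or delay had a part in the differences between treated and untreated embryos was not tested.

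**Figure D5:**
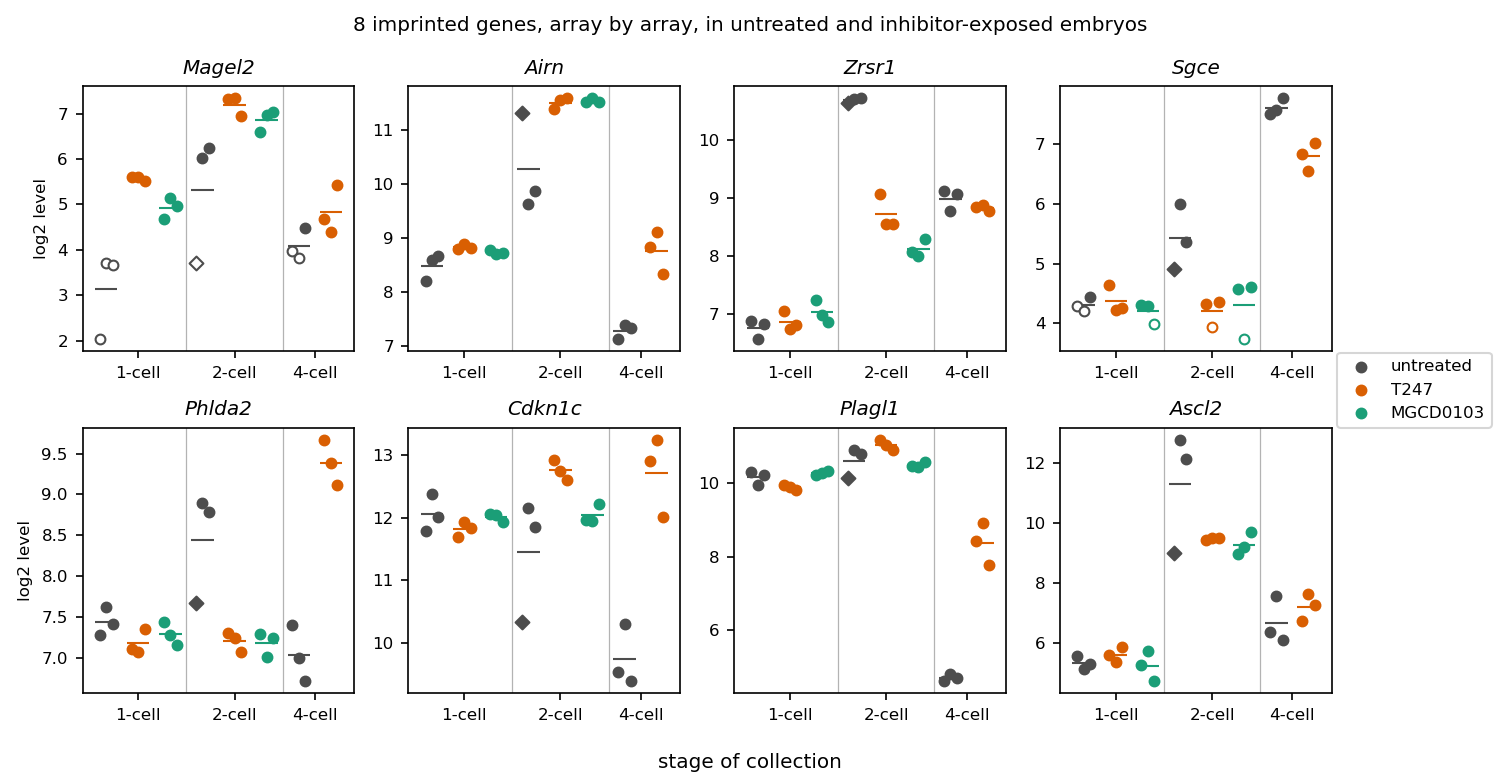
Log2 level on each array of 8 imprinted genes in untreated (grey), T247 (orange) and MGCD0103 (green) embryos, grouped by stage, with a line at the mean of 3 arrays. Filled points were well above background, and the diamond is untreated 2-cell replicate 1, which lies apart from the other 2 in Magel2, Airn, Phlda2, Cdkn1c and Ascl2 and with them in Zrsr1.

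The 2 inhibitors were set against each other at the same dose, exposure and collection time. At the 1-cell stage 0.176% of all genes (0.0227% higher and 0.153% lower) and 0 imprinted genes were called between MGCD0103 and T247 by limma, and of 34 imprinted genes well above background on at least 2 arrays of a group, the 95% interval of the difference lay within ± 1 on the log2 scale for 23. Magel2 had a difference of -0.64 with an interval of -1.69 to 0.41. Over all 42 genes, 1 had an unadjusted p below 0.05. At the 2-cell stage 6.33% of all genes (3.20% higher and 3.13% lower) and 2 imprinted genes were called, with a median of 0.23 over all genes and 0.15 over the imprinted genes, and for 17 of 38 the interval lay within ± 1. Mkrn3 was at least 2.09-fold lower with MGCD0103 (adjusted p = 0.000635). Peg10 was higher with MGCD0103 (log2 fold change 2.05, SE 0.77, adjusted p = 0.0408), a difference that came from replicate 2 of the MGCD0103 arrays, where the other 2 overlapped with T247. Zrsr1 was lower with MGCD0103, with a difference of -0.60 (interval -0.91 to -0.29, adjusted p = 0.00338) and Gnas higher by 0.88 (0.57 to 1.19), both under the threshold of 1. For Phlda2 the difference was -0.02 (-0.57 to 0.52) and for Airn 0.04 (-0.57 to 0.64). The arrays of the 2 inhibitors were on different slides.

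The factors that set, keep or read imprints were followed with a list of 20 genes, which were all tested. At the 1-cell stage 0 were called with either inhibitor by limma, and 7 with T247 and 4 with MGCD0103 had an unadjusted p below 0.05. At the 2-cell stage 5 were lower with T247, namely Trim28 (-1.45), the corepressor that ZFP57 recruits, Tet3 (-1.21), which oxidizes 5-methylcytosine, Arid4a (-1.14), Zfp57 (-1.02) and Uhrf1 (-1.01), which guides the maintenance methyltransferase. With MGCD0103 Trim28 (-1.64), Arid4b (-1.23) and Arid4a (-1.15) were lower and Dppa3 (1.15), which protects the maternal genome from demethylation, and Dnmt3a (1.09), a de novo methyltransferase, higher, 5 of 20 in each. At the 4-cell stage Dnmt3l (-1.26) and Dnmt3b (-1.01) were lower with T247, 2 of 20. The shares of 25.0, 25.0 and 10.0% compare with 25.3, 28.0 and 16.2% of all genes called. These calls were not repeated under the other scalings or with 1 array left out. With T247 at the 2-cell stage the median of all genes was -0.23, and Zfp57 and Uhrf1 lay close to the threshold.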

How the data were processed

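RNA of 39 samples of 100 oocytes or embryos each (13 conditions, 3 arrays each) was hybridized to 1-colour Agilent mouse arrays. The authors deposited 1 scanner file per array with spot intensities, including the background-corrected processed signal, and a file of log2 values normalized by them. The files' headers name Feature Extraction 10.7.1.1 and the labels 9.5.1.1.

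Control spots and 47 flagged outlier spots were left out, spots of a probe were averaged, and the log2 processed signals of 55681 probes were smooth quantile normalized over all arrays with own code (window 0.05). Probes were named by accession (27254), symbol (3594) or older symbol (551) through RefSeq tables, and 24282 stayed unnamed. A gene was kept when 1 condition had a probe of it well above background on each of its 3 arrays, with the brightest probe for each gene. Differences were fitted with limma 3.58.1 (R 4.3.3, statmod 1.5.0), with Benjamini-Hochberg adjustment over 17605 genes within each of 17 comparisons, and all adjusted p-values are from this test. The scripts were tested on simulated data. The study's own filter and fill-in of missing values would drop silent genes and were run only as an alternative, with no fill-in.

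Values on each array are given for up to 20 genes called with an inhibitor, by size of change, and for the 10 with the widest range over untreated conditions. Some further genes were named after their values were seen. The members, gene lists and tests were chosen with earlier results of these data known. Alternatives were the scaling (75th percentile, quantile), normexp background correction with an offset of 50, the deposited log2 values, the detection filter, the mean of a gene's probes, the arrays in the fit, the replicate number or the slide as a block, and leaving out each array. Samples with the same replicate number were not treated as pairs, by a rule on the correlation of their deviations. Arrays have no read depth: their number, 3 a group, and the distance from background limit the precision. No spot was saturated.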

Additional observations from a re-analysis of the deposited data

Results flagged for a closer look

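The effect of an inhibitor on an imprinted gene was set against its effect at another stage, or against the other inhibitor, by the term for that difference in the limma fit, and each gene below passed the same thresholds for the difference itself. Values are differences of log2 fold changes, and the explanation was not tested for any of them.

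Between the 2-cell and the 1-cell stage the effect of T247 differed in 8 genes, beside 19.4% of all genes (5.87% higher and 13.5% lower). It was higher at the 2-cell stage for Cdkn1c (1.55), Mkrn3 (2.24) and Smoc1 (1.71), and lower for Ascl2 (-2.10), Gnas (-1.07), Impact (-2.64), Sgce (-1.28) and Zrsr1 (-2.08). Without replicate 1 of the untreated 2-cell embryos 12 genes were called, beside 27.9%, of which 6 were among these 8; Cdkn1c and Smoc1 left. Without replicate 2 the count was 4, beside 17.3%, and without replicate 3 it was 6, beside 16.9%. Of the 12 fits that left out 1 array of any group compared, Ascl2 was called only in the fit without untreated 2-cell replicate 1. Smoc1 was called only without untreated 1-cell replicate 1 or untreated 2-cell replicate 3. Mkrn3 and Zrsr1 were called in each of the 12.

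Between the 4-cell and the 2-cell stage the effect of T247 differed in 11 genes, beside 25.9% of all genes (17.6% higher and 8.29% lower). The higher effects were those of Phlda2 (3.59), Plagl1 (3.26), Peg12 (2.48), Ascl2 (2.34), Zrsr1 (1.82), Grb10 (1.73), Cdkn1c (1.67) and Mest (1.07), and the lower ones those of Gab1 (-2.56), Smoc1 (-1.81) and Kcnq1ot1 (-1.53). Grb10, an adaptor that restrains insulin signalling, and Mest passed the threshold at neither stage alone. Their log2 fold changes were -0.81 and -0.83 at the 2-cell stage and 0.91 and 0.24 at the 4-cell stage. Without replicate 1 of the untreated 2-cell embryos the same 11 were called among 16, beside 33.3% of all genes. Without replicate 2 the count was 9, beside 23.1%, with Ascl2 and Smoc1 lost. Without replicate 3 it was 9, beside 22.7%, with Ascl2, Kcnq1ot1 and Mest lost and Mkrn3 added. The same 3 genes were lost without replicate 3 of the untreated 4-cell embryos, with a count of 8, beside 25.1%.

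For MGCD0103 the effects at the 2-cell and 1-cell stages differed in 6 genes, beside 22.2% of all genes (7.67% higher and 14.6% lower): Smoc1 (3.39) and Zim1 (1.17) were higher and Sfmbt2 (-3.08), Zrsr1 (-2.84), Peg12 (-1.62) and Phlda2 (-1.12) lower at the 2-cell stage. Without replicate 1 of the untreated 2-cell embryos all 6 were called among 12, beside 33.8% of all genes, and without replicate 2 or replicate 3 the count was 2, beside 17.8 and 18.2%. Of the 12 fits that left out 1 array of any group compared, Peg12 was called only in the fit without untreated 2-cell replicate 1. Smoc1 and Zrsr1 were called in each of the 12. Impact, Mkrn3, Peg12, Sfmbt2 and Smoc1 had groups with no array well above background among those compared, so that their fitted sizes rest on values near the background. For Impact these were the 1-cell groups.

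Between MGCD0103 and T247 at the 2-cell stage the effect differed for Mkrn3 (-1.84) and Peg10 (2.05), the latter through 1 MGCD0103 array.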

How the results depend on the processing

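Counts of called imprinted genes are given here per setting, each with the share of all genes called in the same fit in parentheses. Under the 75th percentile T247 counted 2 (4.85%) and MGCD0103 2 (2.68%) in 1-cell embryos, and the difference between inhibitors at the 2-cell stage 1 (5.40%). By quantile normalization T247 counted 2 (4.35%) in 1-cell embryos and the difference of MGCD0103 effects between stages counted 11 (26.1%). With normexp the counts were 0 (2.07%) with T247 and 0 (1.40%) with MGCD0103 in 1-cell embryos, 7 (14.0%) and 6 (16.3%) in 2-cell embryos, 1 (1.76%) between inhibitors, 3 (12.6%) from MII to 1-cell, 10 (37.6%) from 1-cell to 2-cell, 2 (5.21%) from 4-cell to 8-cell, and 5 (12.3%) and 7 (15.5%) for the T247 stage differences, so that fewer of all genes were called as well. The deposited log2 table held 10830 genes and 21 of the imprinted genes, so fewer could be called: with T247 0 (4.96%) in 1-cell and 7 (24.4%) in 2-cell embryos, 4 (26.1%) with MGCD0103 in 2-cell embryos, 0 (4.61%) between inhibitors, 10 (50.5%), 2 (22.8%), 8 (51.5%), 16 (59.3%), 7 (12.2%), 8 (36.8%) and 11 (23.9%) over the untreated steps in order, and 4 (20.5%) for the first T247 stage difference. Fits of only the arrays compared gave 9 (20.1%) with T247 and 3 (18.8%) with MGCD0103 in 2-cell embryos. They gave 0 (3.05%) with MGCD0103 in 1-cell embryos and 2 (15.9%) for its stage difference. These fits have fewer samples behind each and take the spread from those arrays alone. The study's detection filter gave 3 (20.9%) from MII to 1-cell. It, no detection filter, the mean of probes and the slide as a random block each gave 1 between inhibitors at the 2-cell stage (5.63, 5.94, 5.83 and 5.79%). The cause of the other shifts was not tested.

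Leaving out 1 array at a time gave 1 to 2 (4.64 to 5.82%) with T247 and 0 to 1 (2.77 to 3.77%) with MGCD0103 in 1-cell embryos, 9 to 17 (22.7 to 31.4%) and 5 to 14 (22.4 to 37.7%) in 2-cell embryos, 7 to 10 (13.5 to 18.4%) with T247 in 4-cell embryos and 1 to 3 (4.33 to 7.29%) between inhibitors at the 2-cell stage. Over the untreated steps in order it gave 14 to 17 (up to 45.4%), 4 to 6 (18.2 to 21.0%), 18 to 22 (47.7 to 55.8%), 26 to 30 (57.3 to 58.4%), 11 to 13 (10.5 to 13.5%), 13 to 15 (33.2 to 34.6%) and 17 to 18 (25.4 to 27.7%), and for the stage differences 4 to 12 (16.9 to 27.9%) and 8 to 16 (22.7 to 33.3%) with T247 and 2 to 12 (17.8 to 33.8%) with MGCD0103. Direction reversed for Impact in the deposited table (0.13 with T247 and 0.29 with MGCD0103 at the 2-cell stage, -0.74 from 1-cell to 2-cell), for Gnas (0.19 and 0.18), Tssc4 (0.11 and 0.28), Ndn (0.088, 75th percentile), Osbpl5 (0.11, quantile) and Grb10 (0.0070, quantile) from GV to MII under the 75th percentile and quantile scaling, and with the study's filter for Peg10 from 1-cell to 2-cell (-0.63) and Peg12 in the MGCD0103 stage difference (0.41). Those from GV to MII turned where the scaling moved the median of all genes. Other splits of higher and lower calls, at the 75th percentile and then by quantile, were 1 and 1 and again 1 and 1 (T247, 1-cell), 1 and 1 then 0 and 1 (MGCD0103, 1-cell), 0 and 1 then 0 and 2 (between inhibitors, 2-cell), and for the stage differences 5 and 1 then 4 and 2, 6 and 5 then 5 and 5 (T247), and 5 and 2 then 6 and 5 (MGCD0103). The replicate number as a block (15 calls with T247 and 12 with MGCD0103 in 2-cell embryos, and 9 with T247 in 4-cell embryos) changed no call. Same-numbered arrays were not treated as pairs, since in no comparison did every pair's deviations correlate over 0.1 (-0.16 to 0.19 over all pairs). This rule does not show that they were independent. Same-numbered untreated arrays shared a slide, and in each untreated step their deviations correlated more than those of other pairs, with means of 0.13 against -0.063 from GV to MII and 0.025 against -0.012 from 2-cell to 4-cell.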
